A study of Homo sapiens with 9 samples.

Results

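The comparison described here set cells given biomineralized insulin against cells given plain medium, and used 6 of the 9 arrays of the series, 3 in each group, which were picked by their sample titles. Messenger RNA was measured on one-colour Affymetrix 3' expression arrays. Per the labels, the cells were R-HepG2, a variant of the human hepatoma line HepG2 that resists insulin. They were grown with 10% foetal calf serum, kept without serum overnight and then held for 4 h in plain medium or with biomineralized insulin carrying 40 ug/ml insulin. The 3 other arrays, which received ordinary insulin at the same concentration, entered the fit and are quoted only where named. In the cell line tags, medium arrays carry R-HepG2 and treated ones HepG2, whereas the protocols speak of R-HepG2 for all, so a difference between 2 forms of the line cannot be told apart from the treatment. No group received the mineral without insulin, so both components of the preparation cannot be told apart either. No source used here says that replicates came from separate cultures, and p-values therefore measure only the spread between these arrays, which may be technical.

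Insulin binds a receptor tyrosine kinase and acts through the phosphatidylinositol 3-kinase, AKT and mTOR pathway and through MAP kinases. In liver cells these pathways are known for restraining FOXO transcription factors, for raising lipid and glycogen synthesis and for favouring translation over autophagy. Transcript levels also depend on the supply of amino acids, on growth factors of the medium and on the circadian clock, whose gene families are described below beside those of the cytoskeleton, the cell surface and the mitochondria.

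The arrays were alike in their overall level, with medians between 5.46 and 5.50 log2. Correlation across probe sets was 0.998 within each group and 0.992 to 0.993 between the groups, and the first principal component of the 6 arrays held 84.8% of the variance. Polyadenylated bacterial RNAs spiked into each sample before labelling read 7.498, 7.80 and 7.57 log2 on the biomineralized insulin arrays and 7.16, 7.20 and 7.29 on the medium arrays, a difference of 0.40 that no array overlapped (exact permutation test, two-sided p = 0.1, the smallest that 3 arrays against 3 allow, and 0.467 adjusted over 7 control tests). Centring the arrays on these spike-ins moved the median change of all genes from 0.02 to -0.38 log2, so each direction below is relative to the median of all genes. A rise below 0.40 log2 turned to a fall with spike-in centring. Actin, whose 3' minus 5' signal tracks RNA quality, was at 3.07 ± 0.10 log2 with biomineralized insulin and 3.02 ± 0.06 in medium (SD, n = 3, exact permutation p = 0.6).

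The hepatoma label was checked against liver markers. Of 16 liver markers measured, 6 lay above the brightness filter of 4.74 log2 by their mean over all 9 arrays, and the summed level of the 16 ran from 67.3 to 69.1 in medium and from 67.8 to 69.1 with biomineralized insulin. ALB, serum albumin, was at 3.28 log2 in medium, AFP, alpha-fetoprotein, at 3.00 and APOB, apolipoprotein B, at 2.88, all below the filter, while ASGR1, a hepatocyte lectin receptor, was at 5.93 and APOA1 at 5.77. Of the other secreted liver proteins, TTR, transthyretin, was at 5.15, AHSG, fetuin A, at 5.25 and TF, transferrin, at 4.88. The absence of ALB, AFP and APOB above the filter goes against the label, and R-HepG2 is used below as the name in the labels. Of 9 lung epithelium markers 6 lay above the filter, with sums of 49.5 to 50.2 in medium and 51.9 to 52.5 with biomineralized insulin. LPCAT1, an enzyme of surfactant lipid synthesis that other tissues also express, rose by 1.27 ± 0.045 (adjusted p = 1.1e-12). NKX2-1, a lung and thyroid transcription factor, rose by 0.59 ± 0.074 (adjusted p = 4.8e-06), and its 2 probe sets went opposite ways. The other 4 above the filter were not called, with SFTPB, SFTPC, NAPSA and SCGB3A2 at 0.14, 0.12, 0.091 and -0.13. Markers of fibroblasts (4 of 7 above the filter) summed to 37.9 to 38.4 in medium and 38.8 to 38.9 with biomineralized insulin. Of 5 blood markers 2 lay above the filter, with sums of 19.5 to 20.4 and 20.1 to 20.3, and of 5 endothelial markers 4 did, with sums of 24.5 to 25.5 and 25.3 to 25.4. The part of these marker shifts in the results was not tested. On bulk arrays, fewer cells of a type and less RNA per cell cannot be told apart.

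Biomineralized insulin was followed by a wide and mostly shallow response. Of 12240 genes tested, 6230 (50.9%) passed an adjusted p of 0.05 in limma, of which 3140 (25.7% of those tested) were higher and 3090 (25.2%) lower. The median absolute change was 0.16 log2 over all genes and 0.30 over the called genes, beside a median standard error of 0.059. At least 1.5-fold changes numbered 870 (7.11%), with 338 higher (2.76%) and 532 lower (4.35%). In all of these 870 the arrays of both groups did not overlap, as in 6930 (56.6%) of all tested genes. The excess of falls grew with size: 58 genes were higher and 142 lower by at least 2-fold, 10 and 42 by at least 3-fold, and 1 and 24 by at least 4-fold. Without the 95 tested genes of stress, heat shock and sterol synthesis lists, 326 genes were higher and 506 lower by at least 1.5-fold, and 52 and 121 by at least 2-fold. The counts at 3-fold and 4-fold include these lists. The stress list held genes of integrated and unfolded protein stress only, so genes outside it may still respond to stress. When arrays were centred on the spike-ins, 273 genes were called higher and 9120 lower, and 60 and 2599 by at least 1.5-fold.

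Calls depended on brightness. Among the 4080 dimmest tested genes 27.8% were called, among the 4080 in the middle 59.4% and among the 4080 brightest 65.5%, while the median standard error was 0.087, 0.058 and 0.041. Genes read by several probe sets gave a check on direction. All probe sets agreed in sign for 66.6% of the 7151 such genes, for 78.2% of the 4057 called ones and for 92.3% (512 of 555) of those called at least 1.5-fold.

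**Figure D1:**
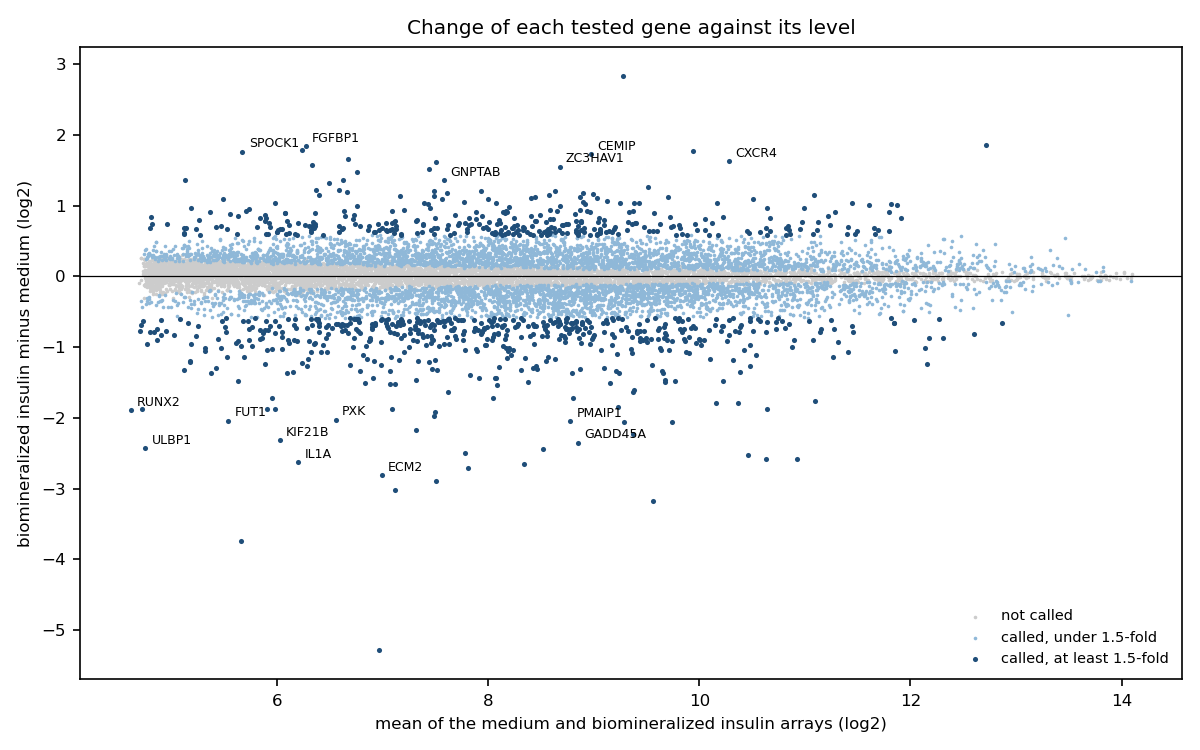
Change of each of 12240 tested genes (log2, biomineralized insulin minus medium, as deposited) against its mean level (log2). Grey points were not called and light blue points were called. Dark blue points (870) were called with at least 1.5-fold change, more of them lower (532) than higher (338). Of the 24 largest changes outside the stress, heat shock and sterol lists, 15 are labelled. With spike-in centring all points move down by 0.40.

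**Figure D2:**
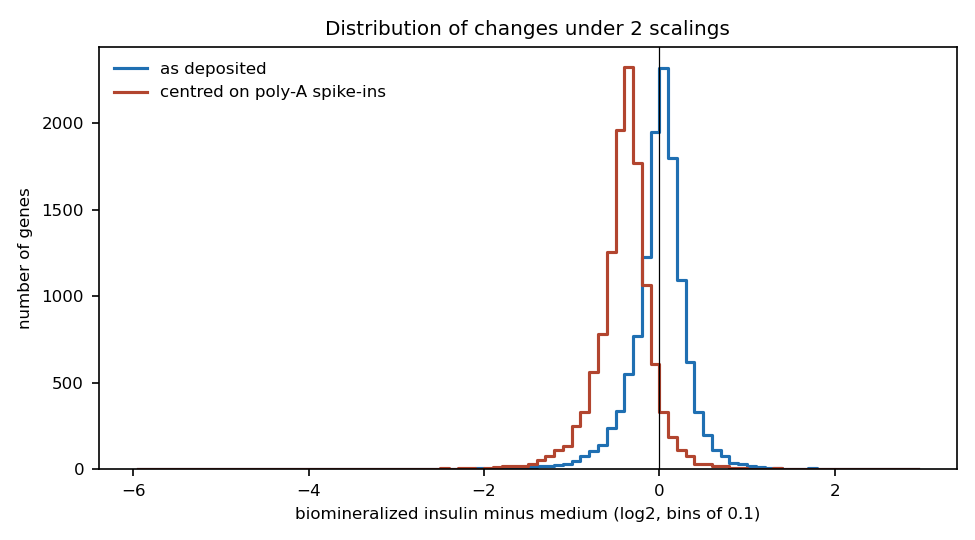
Number of genes by change (log2, bins of 0.1 log2) as deposited, in blue, and after centring each array on its poly-A spike-ins, in red. The median is 0.02 as deposited and -0.38 with spike-in centring, where most rises turn into falls.

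The 12 largest rises outside the stress, heat shock and sterol lists ran from 1.36 to 1.85 log2, with FGFBP1 first. RPL27A, a protein of the large ribosomal subunit, was second, on a probe set that was dim in medium. FGFBP1, a carrier that frees fibroblast growth factors from the matrix, read 5.27, 5.26 and 5.51 in medium and 7.23, 7.01 and 7.35 with biomineralized insulin, and rose by 1.85 ± 0.094 (adjusted p = 1.2e-10). SPOCK1, a secreted proteoglycan of the testican group, read 4.76, 4.86 and 4.75 in medium and 6.57, 6.30 and 6.78 with biomineralized insulin, a change of 1.76 ± 0.12 (adjusted p = 2.4e-09), and its medium values lay at the brightness filter. CEMIP, a protein needed for the breakdown of hyaluronan, read 8.12, 8.09 and 8.11 in medium and 9.85, 9.83 and 9.82 with biomineralized insulin. All 3 biomineralized insulin arrays stood clear of the medium arrays for each of these genes. Such separation was a condition for naming the 12 rises, the 12 falls and the members picked per family, and adds no support. CEMIP rose by 1.73 ± 0.053 (adjusted p = 1.7e-13), although the weakest of its probe sets changed by 0.11.

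CXCR4, the receptor of the chemokine CXCL12, was the brightest of these rises, at 9.63, 9.35 and 9.42 in medium and 11.06, 11.09 and 11.16 with biomineralized insulin. It rose by 1.63 ± 0.082 (adjusted p = 9.8e-11). SPINK6, an inhibitor of kallikrein proteases, rose by 1.67 ± 0.076 (adjusted p = 3.1e-11). TNFRSF10D, a decoy receptor for the death ligand TRAIL, read 6.88, 6.52 and 6.70 in medium and 8.26, 8.36 and 8.33 with biomineralized insulin, a change of 1.62 ± 0.079 (adjusted p = 6.9e-11); its second probe set changed by 0.07. The arrays of both groups were apart for all of these.

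Inside the cell, UBASH3B, a tyrosine phosphatase that damps receptor signalling, rose by 1.58 ± 0.095 (adjusted p = 8.6e-10). ZC3HAV1, an antiviral RNA-binding protein, rose by 1.55 ± 0.045 (adjusted p = 1.2e-13), but 1 of its 3 probe sets went the other way. ARNT2, a partner of basic helix-loop-helix PAS transcription factors, read 6.73, 6.68 and 6.63 in medium and 8.13, 8.23 and 8.22 with biomineralized insulin, a change of 1.51 ± 0.061 (adjusted p = 6.5e-12), and GNPTAB, part of the enzyme that tags lysosomal proteins with mannose 6-phosphate, rose by 1.36 ± 0.060 (adjusted p = 1.7e-11). PER2, a repressor of the circadian clock, rose by 1.48 ± 0.074 (adjusted p = 8.9e-11), with a second probe set at 0.05. RPL27A read 5.63, 5.35 and 5.04 in medium and 7.15, 7.18 and 7.04 with biomineralized insulin, a change of 1.78 ± 0.11 (adjusted p = 1.1e-09) on its only usable probe set. Its medium values lay near the brightness filter of 4.74. Whether this dim probe set reads the main RPL27A transcript was not tested. Spike-in centring, a shift of -0.40, left all 12 rises positive. That outcome was fixed by their size, at least 1.36, and adds no support.

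Falls were larger. ECM2, an extracellular matrix protein, read 8.46, 8.40 and 8.32 in medium and 5.48, 5.71 and 5.57 with biomineralized insulin, and fell by 2.80 ± 0.065 (adjusted p = 6.3e-15). IL1A, the cytokine interleukin 1 alpha, read 7.54, 7.51 and 7.48 in medium and 4.75, 4.99 and 4.92 with biomineralized insulin, a change of -2.62 ± 0.070 (adjusted p = 3.5e-14). GADD45A, a growth arrest and DNA damage response protein, read 10.02, 10.06 and 9.9965 in medium and 7.61, 7.71 and 7.71 with biomineralized insulin, a change of -2.35 ± 0.043 (adjusted p = 3.6e-16), and had the lowest adjusted p of the 12 (3.6e-16). PMAIP1, the death-promoting BCL2 relative NOXA, read 9.79, 9.83 and 9.77 in medium and 7.77, 7.67 and 7.82 with biomineralized insulin, a change of -2.04 ± 0.054 (adjusted p = 3.3e-14). For these 4 genes every medium array lay far above every biomineralized insulin array.

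The other falls above the brightness filter were CAMTA2, CXCL2, PHLDA1, PXK and KIF21B. CAMTA2, a calmodulin-binding transcription activator, fell by 1.97 ± 0.051 (adjusted p = 3.0e-14). CXCL2, a neutrophil-attracting chemokine, fell by 1.91 ± 0.072 (adjusted p = 2.8e-12), and PHLDA1, a pleckstrin homology-like protein induced by growth factors, fell by 1.88 ± 0.057 (adjusted p = 1.6e-13). PXK, a kinase-like protein of endosomes, fell by 2.02 ± 0.092 (adjusted p = 3.1e-11), while the weakest of its 5 probe sets changed by -0.20. KIF21B, a kinesin motor, fell by 2.32 ± 0.061 (adjusted p = 3.5e-14), with its second probe set at -0.06. With biomineralized insulin KIF21B read 4.84, 4.91 and 4.85, close to the filter of 4.74, as did IL1A, so the sizes of both falls are uncertain.

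Of the 12 falls 3 ended below the brightness filter with biomineralized insulin, so only a bound can be given, set against the filter. RUNX2, the master transcription factor of bone formation, was at least 1.76-fold lower (adjusted p = 6.6e-10). ULBP1, a stress ligand of the natural killer receptor NKG2D, was at least 2.33-fold lower (adjusted p = 4.8e-10), and its other probe set changed by -0.01. FUT1, the fucosyltransferase that makes the H blood group antigen, read 6.57, 6.66 and 6.43 in medium and 4.48, 4.35 and 4.72 with biomineralized insulin, at least 3.51-fold lower (adjusted p = 3.0e-11).

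**Figure D3:**
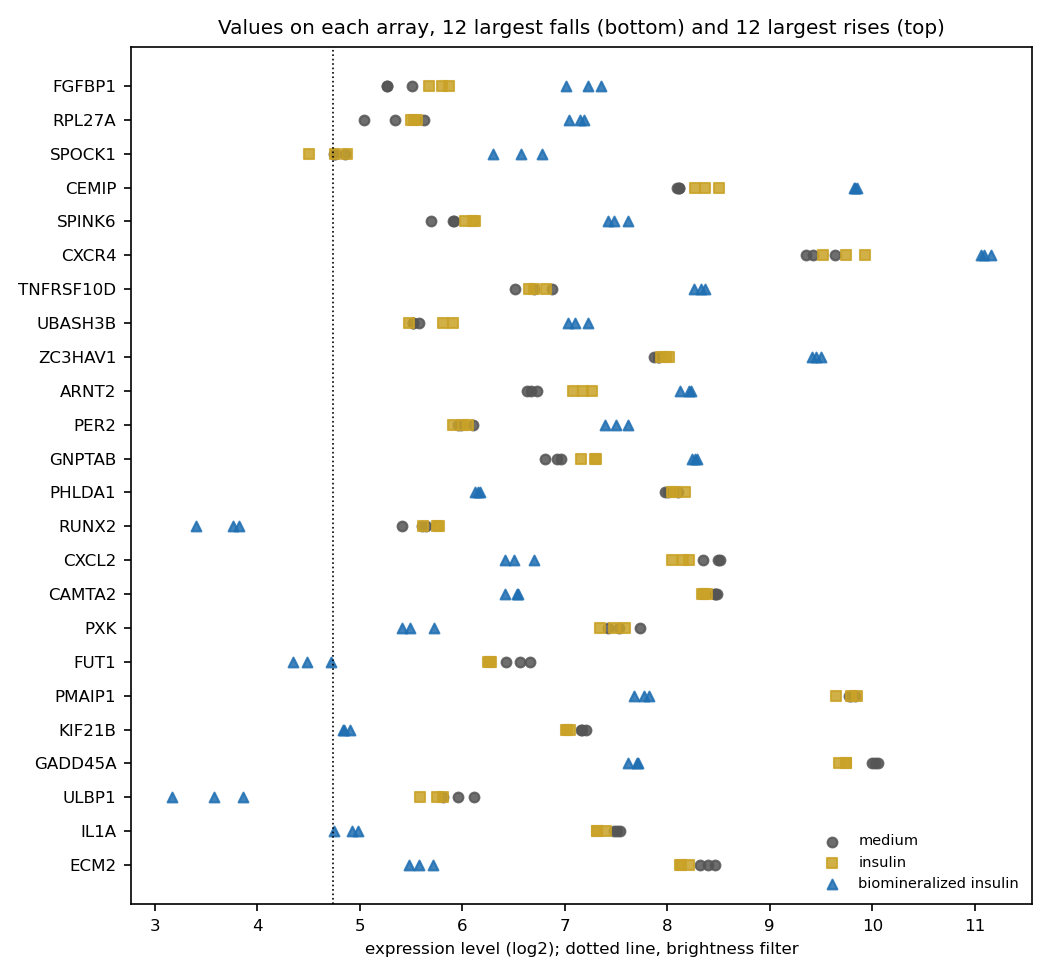
Level (log2) on each array of the 12 largest rises (upper rows) and 12 largest falls (lower rows), with medium as grey circles, biomineralized insulin as blue triangles and insulin as yellow squares; the dotted line is the brightness filter at 4.74. In every row the blue triangles do not overlap the grey circles, which was a condition for the choice of these genes.

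Gene families outside stress, heat shock and sterol synthesis were then described, 92 in all with 2610 tested genes. They held 197 of the 870 genes changed at least 1.5-fold, a share of the 2610 close to the 7.11% over all tested genes. Of the families, 23 had no such member. Each family count below stands beside 25.7% of all genes called higher and 25.2% called lower. Family medians ran from -0.46 to 0.38 log2, beside 0.02 for all genes, and most lay within 0.2 of zero: 3 families exceeded 0.2 and 4 lay below -0.2. The lowest median belonged to the synthetases that load amino acids onto transfer RNA in the cytosol. Of 20 tested, 13 fell and 3 rose (65% lower, beside 25.2% of all genes), 9 fell by at least 1.5-fold, and the median was -0.46. CARS1, for cysteine, read 10.15, 10.22 and 10.07 in medium and 8.31, 8.27 and 8.34 with biomineralized insulin. AARS1, for alanine, read 10.54, 10.49 and 10.51 in medium and 8.95, 8.99 and 9.14 with biomineralized insulin, and MARS1, for methionine, read 10.32, 10.33 and 10.30 in medium and 8.94, 8.97 and 9.04 with biomineralized insulin. The arrays of the groups were far apart for each. CARS1 fell by 1.84 ± 0.043 (adjusted p = 6.5e-15), AARS1 fell by 1.48 ± 0.048 (adjusted p = 3.7e-13) and MARS1 fell by 1.34 ± 0.041 (adjusted p = 1.7e-13), while SARS1, for serine, fell by 1.26 ± 0.037 (adjusted p = 1.2e-13).

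Other synthetases are named after their values were seen. GARS1, WARS1, YARS1, TARS1 and EPRS1 (for glycine, tryptophan, tyrosine, threonine, and both glutamate and proline) changed by -1.24, -1.08, -0.94, -0.66 and -0.63. IARS1 and NARS1, for isoleucine and asparagine, changed by -0.49 and -0.43. In contrast TARS3, a second threonine enzyme, rose by 0.67 ± 0.12 (adjusted p = 1.5e-04), and RARS1 and HARS1, for arginine and histidine, changed by 0.33 and 0.28; the last 2 turned to -0.07 and -0.12 with spike-in centring. Of the 16 separate mitochondrial synthetases 5 rose and 2 fell, none by 1.5-fold, at a median of 0.06 that became -0.34 with spike-in centring.

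Promoters are printed for genes of this group because 6 of them share an element. The core of the C/EBP-ATF response element, TGATGCAA on either strand, through which ATF4 and C/EBP proteins are known to act when amino acids are scarce, was looked for from 250 bases before to 50 after the start of each gene in RefSeq's promoters (GRCh38.p14), matched for 9981 of the tested genes. It lay in 0.501% of these promoters and in 0.923% of all 27305 promoters. It lay in 14 of 440 promoters (3.18%) of genes lower by at least 1.5-fold and in 0 of 279 of those higher. The stress, heat shock and sterol lists were not left out of these sets. The lower set also holds the synthetases CARS1, AARS1, MARS1 and TARS1, so its share cannot be read as one of the wider falls. Of 16 synthetase promoters 6 held it, and all 6 genes fell, from -1.84 to -0.43 log2; of the 10 without it 5 fell. The direction of genes and the letters are a description only. Capitals mark the core, which reads as TTGCATCA on the opposite strand, in CARS1 (chr11:3057374-3057673, minus strand), AARS1 (chr16:70289457-70289756, minus strand), MARS1 (chr12:57487818-57488117, plus strand) and FUT1 (chr19:48755309-48755608, minus strand), each 5′ to 3′. FUT1 is shown as a gene of the 12 largest falls outside the synthetases that holds the core.
CARS1: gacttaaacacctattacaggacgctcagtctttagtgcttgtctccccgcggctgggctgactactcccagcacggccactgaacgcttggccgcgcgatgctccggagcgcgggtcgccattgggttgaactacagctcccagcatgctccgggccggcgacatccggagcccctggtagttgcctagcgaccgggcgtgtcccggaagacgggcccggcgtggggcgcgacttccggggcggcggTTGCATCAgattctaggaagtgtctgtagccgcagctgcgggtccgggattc
AARS1: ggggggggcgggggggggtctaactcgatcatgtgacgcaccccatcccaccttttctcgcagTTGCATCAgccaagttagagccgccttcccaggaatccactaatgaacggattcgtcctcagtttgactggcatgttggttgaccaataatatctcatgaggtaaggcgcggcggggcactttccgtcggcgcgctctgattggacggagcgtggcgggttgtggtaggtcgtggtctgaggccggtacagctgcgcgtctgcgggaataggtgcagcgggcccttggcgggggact
MARS1: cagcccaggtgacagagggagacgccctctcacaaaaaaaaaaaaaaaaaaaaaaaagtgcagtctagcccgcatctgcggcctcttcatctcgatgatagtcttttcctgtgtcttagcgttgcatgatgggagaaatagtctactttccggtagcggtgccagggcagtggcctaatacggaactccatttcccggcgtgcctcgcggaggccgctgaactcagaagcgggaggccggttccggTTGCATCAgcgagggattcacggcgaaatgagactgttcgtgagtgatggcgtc
FUT1: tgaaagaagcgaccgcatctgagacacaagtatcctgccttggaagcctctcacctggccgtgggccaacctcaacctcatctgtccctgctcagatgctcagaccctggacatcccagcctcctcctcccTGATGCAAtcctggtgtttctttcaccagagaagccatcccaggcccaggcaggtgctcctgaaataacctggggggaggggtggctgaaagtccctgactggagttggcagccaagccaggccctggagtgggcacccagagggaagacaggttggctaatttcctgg

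Amino acid carriers moved in both directions. Of 23 transporters 10 rose and 7 fell (43.5% and 30.4%, beside 25.7% and 25.2% of all genes), and the 5 that changed by at least 1.5-fold all fell (4.35% of all genes). SLC43A1, a carrier of large neutral amino acids, read 6.91, 6.80 and 6.72 in medium and 4.98, 4.97 and 5.33 with biomineralized insulin, a change of -1.72 ± 0.092 (adjusted p = 2.3e-10). SLC1A4 and SLC1A5, exchangers of alanine, serine, cysteine and, for the latter, glutamine, changed by -1.64 and -1.5005, though the weakest probe set of SLC1A4 changed by -0.09. SLC6A9, a glycine carrier, fell by 0.95 ± 0.070 (adjusted p = 9.1e-09), with a weakest probe set at -0.04, and SLC7A1, for cationic amino acids and named after its value was seen, fell by 0.65 ± 0.042 (adjusted p = 2.3e-09). Enzymes of one-carbon, proline and folate metabolism had 7 falls and 2 rises among 13 (53.8% and 15.4%), at a median of -0.20. MTHFD2, a mitochondrial folate enzyme, fell by 1.02 ± 0.039 (adjusted p = 3.1e-12). GOT1, the cytosolic aspartate aminotransferase, fell by 0.92 ± 0.053 (adjusted p = 4.9e-10), and SHMT2, which splits serine in mitochondria, fell by 0.68 ± 0.035 (adjusted p = 1.4e-10).

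Ribosomal proteins stayed near the median of all genes. Of 66 cytosolic ones 12 rose and 11 fell, at a median of -0.01. RPL27A alone reached 1.5-fold, on a probe set that was dim in medium. The next, RPL35A, named after its value was seen, changed by 0.57. Of 74 mitochondrial ribosomal proteins 22 rose and 24 fell, at a median of -0.02, with MRPL50 at 0.69 and MRPS10 at -0.63. Among 48 translation initiation factors 24 rose and 12 fell (50% and 25%, beside 25.7% and 25.2% of all genes), and the median of 0.08 became -0.32 with spike-in centring. EIF4EBP1, the mTOR-controlled repressor of cap binding, read 11.36, 11.39 and 11.36 in medium and 10.40, 10.32 and 10.42 with biomineralized insulin, and fell by 0.99 ± 0.033 (adjusted p = 5.1e-13). Its insulin minus medium in the same limma fit was -0.21 (adjusted p = 0.0042). EIF3G, a subunit of the scaffold factor eIF3, rose by 0.90 ± 0.046 (adjusted p = 1.2e-10), with a weakest probe set at 0.02. EIF2S2, the beta subunit of eIF2, fell by 0.66 ± 0.038 (adjusted p = 5.5e-10), but 1 of its 3 probe sets changed by 0.10, and EIF1B fell by 0.74 ± 0.043 (adjusted p = 5.7e-10). RNA polymerases I and III had 8 rises and 4 falls in 16 subunits (median 0.16, -0.24 with spike-in centring), POLR3G at 0.78, POLR1C at 0.69 and POLR3C at -0.67.

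Histone genes, linker histones included, had no rise in limma (0 also at an unadjusted p under 0.05, beside 22 lower) and 21 falls among 34 tested (61.8% lower, beside 25.2% of all genes), at a median of -0.26. Of 72 on the array the other 38 lay below the filter. H2AC6, an H2A gene, read 8.82, 8.81 and 8.62 in medium and 7.54, 7.61 and 7.66 with biomineralized insulin, and fell by 1.15 ± 0.065 (adjusted p = 4.5e-10). H2AC20, another H2A gene, fell by 1.25 ± 0.11 (adjusted p = 1.0e-07), H3C4 fell by 0.70 ± 0.061 (adjusted p = 7.8e-08) and H2BC9 fell by 0.70 ± 0.12 (adjusted p = 1.0e-04). These 4 were the falls of at least 1.5-fold. The brightest, H4C3, named after its values were seen, changed by -0.55 from a medium mean of 13.8 log2. Histone genes have near-identical copies that probe sets may share, so single members are uncertain. Most histone messenger RNAs carry no poly-A tail, and a labelling primed on poly-A reads them only in part. Replication genes fell more often than they rose as well: among 46 of the MCM, ORC and fork group 24 fell and 9 rose, none by 1.5-fold, at a median of -0.10, the lowest being PRIM1, the small primase subunit, at -0.56 (named after its value was seen).

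The CCAAT box, CCAAT on either strand, lay in 28 of 32 histone promoters (87.5%) and in 36.5% of the promoters of tested genes, and TATAAA lay in 18 (56.2%) beside 6.21%. GGGCGG, a GC box, lay in 5 (15.6%) beside 69.0%. The promoter of H2AC6 (chr6:26123922-26124221, plus strand, GRCh38.p14, RefSeq) is shown with its 3 CCAAT boxes in capitals, ATTGG on the opposite strand, since it is one of the 2 largest falls of the family.
H2AC6: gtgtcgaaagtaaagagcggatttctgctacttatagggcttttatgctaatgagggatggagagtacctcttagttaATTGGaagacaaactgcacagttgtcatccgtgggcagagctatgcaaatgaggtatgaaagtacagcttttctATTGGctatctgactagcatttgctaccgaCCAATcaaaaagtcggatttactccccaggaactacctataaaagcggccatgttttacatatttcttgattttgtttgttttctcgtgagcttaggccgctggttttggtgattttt

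Splicing factors of the SR type, which bind exons and recruit the spliceosome, had the highest family median, 0.38, beside -0.02 with spike-in centring. Of 12 tested, 10 rose and 1 fell (83.3% higher, beside 25.7% of all genes). SRSF2 read 10.31, 10.29 and 10.17 in medium and 11.02, 11.12 and 11.10 with biomineralized insulin, and SRSF7 read 11.37, 11.35 and 11.38 in medium and 12.03, 12.001 and 12.04 with biomineralized insulin. Both groups of arrays were apart in each gene, and SRSF2 rose by 0.83 ± 0.044 (adjusted p = 2.1e-10) while SRSF7 rose by 0.66 ± 0.031 (adjusted p = 4.3e-11). SRSF5, SRSF3, SRSF6 and TRA2B changed by 0.58, 0.57, 0.51 and 0.40; with spike-in centring TRA2B was at -0.01. Of 10 probe sets of SRSF5 2 went the other way, 1 of them by -0.72, as did 2 of 9 of TRA2B (lowest -0.095) and 1 of 7 of SRSF10 (-0.015), and the weakest of SRSF2 changed by 0.12. SRSF1 and SRSF10 (0.37 and 0.33), SRSF4 (0.31) and SRSF11 (0.13) rose by less and turned negative with spike-in centring. SRSF9 fell by 0.08 ± 0.029 (adjusted p = 0.04), and TRA2A was at 0.01. The hnRNP proteins, which often oppose SR proteins, had 6 rises and 3 falls among 20 and a median of 0.07 (-0.33 with spike-in centring). RBM8A, a core protein of the exon junction complex, rose by 0.85 ± 0.044 (adjusted p = 1.4e-10), RBM12 rose by 0.82 ± 0.069 (adjusted p = 5.3e-08) and RBMS3 fell by 0.81 ± 0.11 (adjusted p = 1.2e-05).

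Among other nuclear families, the Integrator complex, which ends transcription of small nuclear RNAs, had 8 rises and 3 falls among 15 (median 0.13, -0.27 with spike-in centring), but its 3 changes of at least 1.5-fold were falls. These rises and falls were 53.3% and 20%, beside 25.7% and 25.2% of all genes. INTS6 read 10.13, 10.18 and 10.08 in medium and 9.07, 9.15 and 9.13 with biomineralized insulin, a change of -1.01 ± 0.045 (adjusted p = 2.0e-11). INTS7 fell by 0.73 ± 0.051 (adjusted p = 5.4e-09) and INTS12 fell by 0.68 ± 0.048 (adjusted p = 5.8e-09). Mediator subunits had 10 rises and 6 falls among 27, with MED10 at -0.83 and MED13L at -0.82. The 10 subunits of the RNA exosome, which degrades RNA from its 3' end, split: EXOSC6 rose by 0.64 ± 0.038, while EXOSC8, EXOSC9 and EXOSC1 changed by -0.79, -0.41 and -0.41 and the other 6 were not called. Among 302 genes named ZNF 61 rose and 77 fell (20.2% and 25.5%), a median of -0.01. The largest changes were ZNF674 at -1.37, ZNF311 at -1.17, ZNF772 at -1.01 and ZNF827 at -0.97, the last with a weakest probe set at -0.17.

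**Figure D4:**
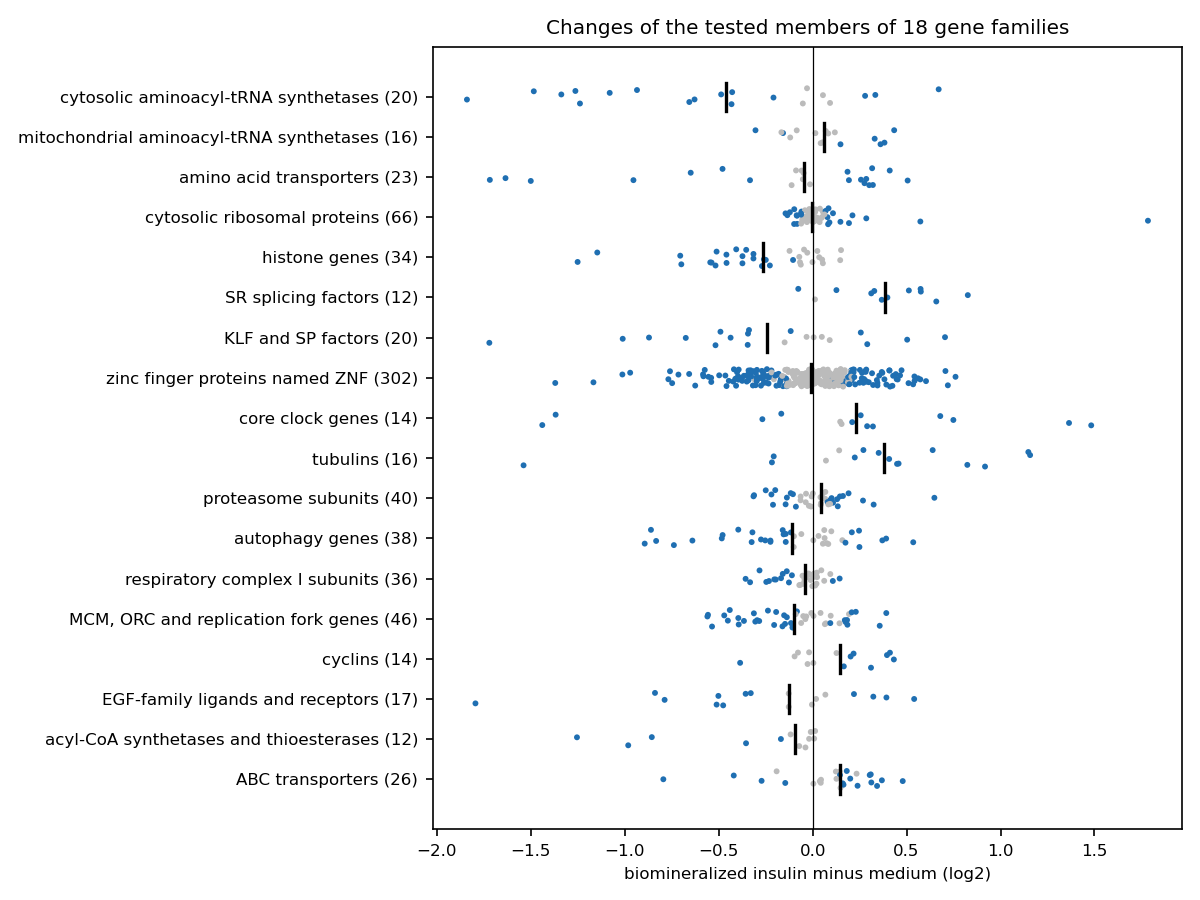
Change (log2, biomineralized insulin minus medium, as deposited) of each tested member of 18 families, with blue for called and grey for not called genes, a black bar at the family median and the number tested in brackets. Synthetases and histones lie mostly left of zero, and SR factors and tubulins mostly right; with spike-in centring all points move left by 0.40, which takes the medians of the last 2 to -0.02.

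Transcription factor families outside the ZNF genes moved as follows. Krüppel-like and SP factors had 11 falls and 4 rises among 20 (55% lower), at a median of -0.24. KLF4, a factor of epithelial differentiation, read 8.9955, 8.93 and 8.78 in medium and 7.06, 7.30 and 7.18 with biomineralized insulin, a change of -1.72 ± 0.071 (adjusted p = 7.8e-12), with its second probe set at -0.78. KLF5, linked to proliferation of epithelia, fell by 1.01 ± 0.061 (adjusted p = 8.6e-10), KLF9, a glucocorticoid-responsive member, fell by 0.87 ± 0.036 (adjusted p = 7.9e-12), and SP4, named after its value was seen, changed by -0.68. KLF17 rose by 0.70 ± 0.096 (adjusted p = 1.1e-05). Among forkhead factors 3 rose and 8 fell of 27 (11.1% and 29.6%, beside 25.7% and 25.2% of all genes). FOXO1, the factor that insulin signalling keeps out of the nucleus, fell by 0.84 ± 0.042 (adjusted p = 1.1e-10), and FOXO3 fell by 0.66 ± 0.056 (adjusted p = 5.3e-08). In the same limma fit, insulin minus medium was -0.05 for FOXO1 (adjusted p = 0.60) and -0.05 for FOXO3 (adjusted p = 0.76). Nuclear receptors had 6 rises and 8 falls among 24 (25% and 33.3%). THRB, a thyroid hormone receptor, fell by 0.97 ± 0.055 (adjusted p = 4.0e-10). PPARG, the fat cell regulator, fell by 0.81 ± 0.039 (adjusted p = 6.3e-11), and NR4A3, an orphan receptor of early responses, fell by 0.73 ± 0.067 (adjusted p = 1.4e-07). HOXB9 fell by 1.29 ± 0.062 (adjusted p = 6.2e-11), HOXB2 fell by 0.64 ± 0.048 (adjusted p = 1.2e-08) and HOXC8 rose by 0.78 ± 0.092 (adjusted p = 2.6e-06) among 20 HOX genes that set position along the body. Of 8 SOX factors, SOX6 and SOX4 were called lower and none higher in limma (2 and 0 also at an unadjusted p under 0.05); SOX4, at -0.12, was at 0.53 on its probe set of largest variance, and 5 of its 7 probe sets went the other way. SOX6, for which the biomineralized insulin mean lay below the filter, was at least 1.40-fold lower (adjusted p = 1.1e-05).

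Clock genes moved in both directions. Of 14 tested 8 rose and 4 fell, at a median of 0.23 that became -0.17 with spike-in centring, and 4 rises and 2 falls reached 1.5-fold (2.76% and 4.35% of all genes). BMAL1, the activator that pairs with CLOCK, read 8.80, 8.85 and 8.72 in medium and 7.26, 7.41 and 7.38 with biomineralized insulin, and fell by 1.44 ± 0.056 (adjusted p = 4.3e-12). NFIL3, a repressor of D-box genes, read 9.94, 9.95 and 9.87 in medium and 8.49, 8.47 and 8.70 with biomineralized insulin, a change of -1.37 ± 0.053 (adjusted p = 4.4e-12). TEF, an activator of the same D-boxes, read 5.88, 5.89 and 6.05 in medium and 7.15, 7.39 and 7.38 with biomineralized insulin, a change of 1.36 ± 0.077 (adjusted p = 4.3e-10), but its other probe set changed by -0.03. NR1D2, a heme-binding repressor of BMAL1 transcription, rose by 0.75 ± 0.11 (adjusted p = 2.2e-05), and CRY2, a partner of the PER proteins named after its value was seen, rose by 0.68 ± 0.11 (adjusted p = 6.9e-05). Every array of one group lay above every array of the other in each of these genes, a condition of choice for all but CRY2.

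Tubulins, the subunits of microtubules, had 11 rises and 3 falls among 16 (68.8% higher, beside 25.7%), at a median of 0.38 that became -0.02 with spike-in centring. TUBB2A, a beta tubulin, read 8.08, 8.02 and 7.87 in medium and 9.13, 9.23 and 9.09 with biomineralized insulin, TUBB3, the neuronal type, read 5.82, 5.67 and 5.96 in medium and 6.99, 6.87 and 7.05 with biomineralized insulin, a change of 1.15 ± 0.084 (adjusted p = 9.7e-09) and TUBB4B read 11.34, 11.30 and 11.38 in medium and 12.24, 12.25 and 12.27 with biomineralized insulin, a change of 0.92 ± 0.033 (adjusted p = 1.7e-12). In all 3 the treated arrays lay above the medium arrays. TUBB2A rose by 1.16 ± 0.057 (adjusted p = 8.5e-11). TUBB6 and TUBA4A, named after their values were seen, changed by 0.82 and 0.64. TUBE1, the epsilon tubulin of centrioles, moved the other way, reading 8.87, 8.88 and 8.80 in medium and 7.37, 7.31 and 7.26 with biomineralized insulin, a change of -1.54 ± 0.061 (adjusted p = 5.0e-12). Tubulin genes share long stretches of sequence, and their probe sets may read each other's transcripts. Kinesins, which walk on microtubules, had 12 rises and 7 falls among 35 (median 0.05, -0.35 with spike-in centring). KIF20A, a motor of cytokinesis, rose by 0.75 ± 0.041 (adjusted p = 2.8e-10), and KIF26A rose by 0.63 ± 0.073 (adjusted p = 2.0e-06). KRT8, a keratin of simple epithelia, read 9.59, 9.63 and 9.71 in medium and 10.68, 10.62 and 10.76 with biomineralized insulin, a change of 1.04 ± 0.046 (adjusted p = 1.9e-11), and all 8 of its probe sets were higher. ACTN1, an actin crosslinker, rose by 0.59 ± 0.042 and MYO10, a motor of filopodia, rose by 0.71 ± 0.035.

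**Figure D5:**
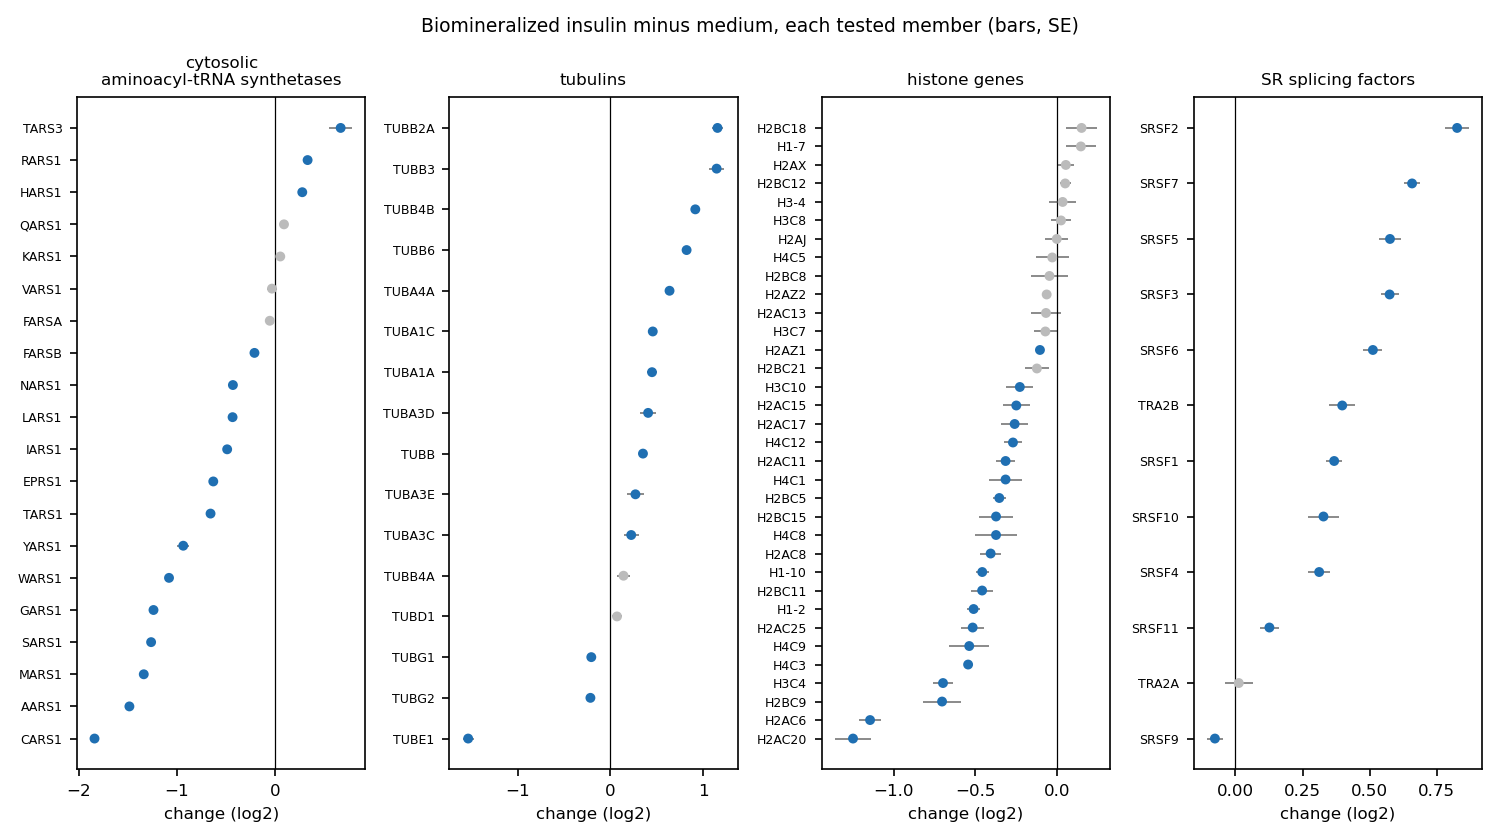
Change (log2, biomineralized insulin minus medium, as deposited; bars, SE) of each tested member of 4 families, blue where called and grey where not. CARS1 is lowest among the synthetases at -1.84, TUBE1 stands apart among the tubulins at -1.54, no histone gene was called higher, and 10 of 12 SR factors were. With spike-in centring every point moves by -0.40, and smaller rises of tubulins and SR factors turn to falls.

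In the cell cycle, cyclins had 7 rises and 1 fall among 14 (50% and 7.14%, beside 25.7% and 25.2% of all genes), none by 1.5-fold. Their median of 0.15 became -0.26 with spike-in centring. CCND1 and CCNB1, cyclins of G1 and of mitosis named after their values were seen, changed by 0.43 and 0.41, and CCNH, part of the CDK-activating kinase, by -0.39. Centromere and spindle checkpoint genes split evenly, with 13 rises and 12 falls among 36. NDC80, which ties kinetochores to microtubules, fell by 0.87 ± 0.041 (adjusted p = 4.7e-11), CENPU fell by 0.80 ± 0.057 (adjusted p = 7.1e-09) and CENPS rose by 0.77 ± 0.048 (adjusted p = 1.4e-09). CDK17 fell by 0.82 ± 0.060 (adjusted p = 9.4e-09) among 25 cyclin-dependent kinases and inhibitors, of which 4 rose and 7 fell.

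Autophagy genes, whose products enclose cell contents for lysosomal breakdown, had 19 falls and 7 rises among 38 (50% lower, beside 25.2% of all genes), at a median of -0.11. ULK1, the kinase that starts autophagy, read 8.04, 7.82 and 7.91 in medium and 7.0034, 7.01 and 7.08 with biomineralized insulin, a change of -0.89 ± 0.061 (adjusted p = 4.2e-09). Its insulin minus medium in the same limma fit was 0.09 (adjusted p = 0.50). CALCOCO2, a receptor for ubiquitin-marked cargo, fell by 0.86 ± 0.044 (adjusted p = 1.3e-10), and GABARAPL1, an ATG8-type protein of the autophagosome, fell by 0.83 ± 0.054 (adjusted p = 2.3e-09). MAP1LC3B, the ATG8-type protein LC3B, named after its value was seen, changed by -0.64, with a weakest probe set at -0.035. ATG12 changed by -0.74, with its second probe set at 0.17. Proteasome subunits had 12 rises and 11 falls among 40, with PSMD3 of the regulatory lid at 0.65, and vacuolar ATPase subunits 2 rises and 4 falls among 20. Of 9 cathepsins, CTSV, CTSH, CTSD and CTSC changed by -0.34, -0.34, -0.18 and -0.16, and CTSB by 0.15 (-0.26 with spike-in centring); probe sets of CTSC and CTSB went the other way, to 0.064 and -0.15. Of 41 ubiquitin-specific proteases 16 fell and 6 rose, among them USP37, USP3, USP25 and USP1 at -0.74, -0.73, -0.68 and -0.65. TRIM2, a ubiquitin ligase, read 9.21, 9.13 and 9.02 in medium and 7.53, 7.57 and 7.79 with biomineralized insulin, a change of -1.49 ± 0.080 (adjusted p = 2.3e-10). The cytosolic chaperonin, which folds actin and tubulin, had 4 rises and no fall among 8 subunits in limma (5 and 0 at an unadjusted p under 0.05, and 0 and 6 called with spike-in centring), the highest being CCT3 at 0.35 (-0.06 with spike-in centring).

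Families of the respiratory chain had medians close to that of all genes. Of all tested genes 25.2% fell and 25.7% rose. Of 36 complex I subunits 12 fell and 2 rose (33.3% and 5.56%), with the lowest at -0.36 (NDUFS1, named after its value was seen). Complexes III and IV had 9 falls and 3 rises among 20 (45% and 15%), and ATP synthase 6 falls and 1 rise among 18 (33.3% and 5.56%). Medians of the 3 were -0.04, -0.05 and -0.01, and no member reached 1.5-fold. Citrate cycle enzymes had 9 falls and 1 rise among 21 (42.9% and 4.76%). The only member of this list to reach 1.5-fold was IDH1, the cytosolic isocitrate dehydrogenase that makes NADPH, which lies outside the mitochondrial cycle. IDH1 read 11.15, 11.06 and 11.06 in medium and 9.97, 10.02 and 9.95 with biomineralized insulin, and fell by 1.11 ± 0.038 (adjusted p = 6.6e-13). Of 12 acyl-CoA synthetases and thioesterases, which load fatty acids onto coenzyme A and release them, 5 fell and none rose in limma (6 lower and 0 higher at an unadjusted p under 0.05). ACSL5 read 7.33, 7.34 and 7.28 in medium and 5.93, 6.06 and 6.19 with biomineralized insulin, a change of -1.25 ± 0.068 (adjusted p = 2.5e-10). ACOT4 and ACSL1 changed by -0.98 and -0.86, and ACOT13 and ACOT8 by -0.35 and -0.17. ACSL4, ACOT9, ACSS1, ACSS2, ACSM5, ACOT11 and ACOT7 were not called, at -0.12 to 0.01. PPP1R3C, which guides phosphatase 1 to glycogen, fell by 0.78 ± 0.033 (adjusted p = 1.2e-11). Its insulin minus medium in the same limma fit was 0.04 (adjusted p = 0.67).

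Of 8 facilitative sugar carriers 2 rose: SLC2A1, the widely expressed glucose transporter, changed by 0.21 and SLC2A13, a myo-inositol carrier, by 0.31, which became -0.19 and -0.09 with spike-in centring. SLC2A4, the transporter that insulin moves to the surface of fat and muscle cells, was at 0.03 (adjusted p = 0.79). None of 6 apolipoproteins was called at an adjusted p of 0.05 in limma, and 1 was higher at an unadjusted p under 0.05. Among carriers of monocarboxylates SLC16A7 fell by 0.93 ± 0.16, SLC16A5 changed by -0.50 and SLC16A10 by 0.67, with a second probe set of SLC16A10 at -0.07. Zinc importers SLC39A10 and SLC39A7 changed by 0.69 and 0.59. ABC transporters had 12 rises and 4 falls among 26 (46.2% and 15.4%, beside 25.7% and 25.2% of all genes). Their median was 0.15 (-0.26 with spike-in centring), and the single change of at least 1.5-fold was ABCA10 at -0.79. CYP1A1, an aryl hydrocarbon receptor target, fell by 0.89 ± 0.093 (adjusted p = 6.5e-07), with its second probe set at -0.24.

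In growth factor signalling, EGF-family ligands, receptors and their inhibitor had 8 falls and 4 rises among 17 (47.1% lower), at a median of -0.13. EGFR, the EGF receptor, read 11.82, 11.90 and 11.84 in medium and 11.07, 11.04 and 11.08 with biomineralized insulin, a change of -0.79 ± 0.036 (adjusted p = 3.3e-11), and all 7 probe sets were lower. ERRFI1, an inhibitor of that receptor, read 11.29, 11.23 and 11.26 in medium and 9.45, 9.40 and 9.55 with biomineralized insulin, a change of -1.80 ± 0.039 (adjusted p = 2.5e-15). ERBB4, another receptor of the family, fell by 0.84 ± 0.10 (adjusted p = 4.2e-06). BMP2, a bone morphogenetic protein, read 11.83, 11.85 and 11.83 in medium and 10.66, 10.72 and 10.71 with biomineralized insulin and fell by 1.14 ± 0.030 (adjusted p = 3.0e-14), within a TGF-beta group of 33 in which 14 fell and 5 rose (median -0.11). ACVR2B, an activin receptor, rose by 0.65 ± 0.064 (adjusted p = 3.1e-07). In the Notch group 6 genes rose and 4 fell among 23 (26.1% and 17.4%, beside 25.7% and 25.2% of all genes). The median was 0.05, or -0.35 with spike-in centring. HES1, the target repressor, fell by 0.99 ± 0.086 (adjusted p = 7.4e-08), with its weakest probe set at -0.026. The ligand JAG1 read 7.73, 7.62 and 7.53 in medium and 6.05, 6.37 and 6.15 with biomineralized insulin. JAG1 changed by -1.43 ± 0.081 (adjusted p = 4.1e-10) on 1 probe set and by 0.36 on the other. DKK1, a secreted Wnt antagonist, read 9.23, 9.06 and 9.13 in medium and 10.25, 10.24 and 10.31 with biomineralized insulin, a change of 1.13 ± 0.051 (adjusted p = 2.8e-11), and FZD4, a Wnt receptor, fell by 0.84 ± 0.058 (adjusted p = 4.9e-09).

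Death and inflammation genes moved both ways. TNFSF9, the ligand of 4-1BB, read 7.67, 7.56 and 7.42 in medium and 8.65, 8.49 and 8.63 with biomineralized insulin, and rose by 1.04 ± 0.065 (adjusted p = 1.3e-09); of 12 TNF ligands and receptors 4 rose and 1 fell. TNFRSF21, death receptor 6, changed by 0.57, TNFRSF1A, the main TNF receptor, by 0.29 (-0.11 with spike-in centring, and 1 of 4 probe sets at -0.065) and TNFRSF10B, a death-signalling TRAIL receptor, by -0.39. CASP9, the caspase of the mitochondrial pathway, fell by 0.76 ± 0.039 (adjusted p = 1.2e-10), with its second probe set at -0.27, and HRK, a BH3-only protein, fell by 0.79 ± 0.094 (adjusted p = 2.8e-06). CASP1, of the inflammasome, lay below the filter in medium and was at least 1.40-fold higher (adjusted p = 3.4e-05). Among 22 interferon-stimulated genes 7 fell and 3 rose (31.8% and 13.6%, beside 25.2% and 25.7% of all genes), and the 5 changes of at least 1.5-fold were falls (4.35% of all genes). IFIT2, which binds foreign RNA, fell by 1.13 ± 0.089 (adjusted p = 2.3e-08). ISG20 fell by 0.80 ± 0.090 (adjusted p = 1.4e-06) and IRF1, an interferon response factor, fell by 0.68 ± 0.092 (adjusted p = 9.7e-06), with a weakest probe set at -0.09. IFI35, named after its value was seen, changed by -0.65, and IFIH1, an RNA sensor, was at least 1.24-fold lower (adjusted p = 0.0028). CFB, complement factor B, rose by 0.86 ± 0.079 (adjusted p = 1.4e-07), and F3, tissue factor, rose by 0.68 ± 0.057 (adjusted p = 5.0e-08).

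At the surface and in the matrix, 14 claudins and tight junction proteins had 3 rises and 3 falls (21.4% each, beside 25.7% and 25.2% of all genes). Their median was 0.06, or -0.34 with spike-in centring. The 2 that changed by at least 1.5-fold were claudins, and both fell by more than 3-fold on their brightest probe sets. CLDN7 read 9.68, 9.68 and 9.62 in medium and 7.96, 7.82 and 8.02 with biomineralized insulin, a change of -1.72 ± 0.051 (adjusted p = 1.2e-13), and CLDN1 read 10.22, 10.16 and 10.19 in medium and 8.48, 8.62 and 8.57 with biomineralized insulin, a change of -1.64 ± 0.042 (adjusted p = 2.7e-14). Neither gene's groups came near each other on these probe sets, but the weakest of 4 probe sets of CLDN1 changed by -0.55. Laminins and matrix glycoproteins had 7 rises and 6 falls among 28 (25% and 21.4%, beside 25.7% and 25.2% of all genes), of which 4 and 1 reached 1.5-fold (2.76% and 4.35% of all genes). LAMA1, a laminin chain, rose by 0.92 ± 0.048 (adjusted p = 1.9e-10), FN1, fibronectin, rose by 0.92 ± 0.099 (adjusted p = 9.2e-07) with all 6 probe sets higher, and CCN3 rose by 0.91 ± 0.072 (adjusted p = 2.3e-08). CCN2, of the same family as CCN3 and named after its value was seen, fell by 0.81 ± 0.071 (adjusted p = 7.4e-08), with a weakest probe set at -0.26. ADAMTS1, a secreted protease, rose by 1.05 ± 0.052 (adjusted p = 8.5e-11), and ADAMTS6, ending below the filter, was at least 2.49-fold lower (adjusted p = 1.0e-09). COL7A1, which anchors epithelium to dermis, changed by 0.59, and COL9A3 of cartilage by -0.66. S100A10, a partner of annexin A2, rose by 0.71 ± 0.037 (adjusted p = 1.8e-10) while S100A14 changed by -0.50. PCDH9, a protocadherin, changed by -0.72 on its brightest probe set and by 0.50 on another.

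Of 43 RAB GTPases, which mark vesicles, 11 rose and 11 fell; RAB4A, of early endosomes, rose by 0.74 ± 0.043 (adjusted p = 5.1e-10), and RAB33B, of the Golgi, fell by 0.86 ± 0.061 (adjusted p = 6.7e-09). TRAPPC6B fell by 0.88 ± 0.042 (adjusted p = 5.7e-11) and TRAPPC12 rose by 0.68 ± 0.063 (adjusted p = 1.5e-07), both parts of TRAPP tethering complexes. STX17, a SNARE of autophagosome fusion, fell by 0.61 ± 0.065 (adjusted p = 8.1e-07), with a weakest probe set at -0.04. Among 56 glycosyltransferases 17 rose and 8 fell (30.4% and 14.3%, beside 25.7% and 25.2% of all genes), with 6 and 3 by at least 1.5-fold (2.76% and 4.35% of all genes). Spike-in centring gave 4 higher and 37 lower. B4GALNT4, below the filter in medium, was at least 2.09-fold higher (adjusted p = 1.3e-09), and ST6GAL1, which adds sialic acid to glycoproteins, was at least 2.04-fold lower (adjusted p = 9.7e-08). B4GALT6, of lactosylceramide synthesis, rose by 0.79 ± 0.10 (adjusted p = 5.9e-06).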

How the data were processed

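The authors deposited one table with a log2 value for each probe set on all 9 arrays, a scale read from the range of the values. Their software was not given in the sources used here. Of 49395 probe sets, 44988 had 1 gene symbol, 1832 several, 2473 none and 102 were controls. Probe sets in the dimmest 40% (mean below 4.74 log2) were dropped. Each gene was read from its brightest remaining probe set, leaving 12240 of 18132 genes. A limma fit (limma 3.58.1 in R 4.3.3, lmFit and eBayes with trend, 6 residual degrees of freedom) held all 9 arrays without a replicate term. A gene is called where its p, adjusted over all genes by Benjamini-Hochberg, is under 0.05; 1.5-fold is an estimated size and no test against it. Changes are given ± SE of the fit. Array number limits the precision. The procedure was tested on simulated data. Families were described by counts and medians, with no set test. Named genes were the 12 largest rises and 12 largest falls outside unnamed loci and the lists for integrated and unfolded protein stress, heat shock and sterol synthesis. Also named were up to 4 members with at least 1.5-fold change per family, all members of families of at most 12 measured genes, and marker genes. Other stress genes, such as GADD45A and ULBP1, were not in the stress list. For the largest changes and the up to 4 members per family, the arrays of both groups had to be apart. The comparison, families and lists were chosen with earlier results of these data known. Same-numbered arrays did not deviate together (correlations -0.17, -0.03 and -0.12), so numbers were not taken to pair arrays. Symbols were updated through Entrez identifiers for 44961 probe sets; promoters came from RefSeq (GRCh38.p14). Alternatives covered normalization, filters, probe sets, the variance model, thresholds, the replicate block and leaving out each array.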

Additional observations from a re-analysis of the deposited data

Results flagged for a closer look

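The poly-A spike-in controls, which lie outside the gene comparison, read 0.4039 log2 higher on the biomineralized insulin arrays (7.50, 7.80 and 7.57) than on the medium arrays (7.16, 7.20 and 7.29), above the level in every control sample (two-sided exact permutation p = 0.1, the smallest possible, 0.467 adjusted over 7 control tests). Hybridization controls, which are added after labelling, differed by -0.005 (exact permutation p = 0.9), and background probes by 0.003 (exact permutation p = 0.8). Groups of 3 arrays are too small for a test of single outlying arrays, and none was made. What moved the spike-ins was not tested.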

How the results depend on the processing

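The counts of called genes and of genes called at least 1.5-fold stayed within 1.5 times the reported values under every alternative run except 3. With spike-in centring 9393 and 2659 genes were called, as the shift of 0.40 log2 adds to every fall. Without _s_at, _x_at and _a_at probe sets, a setting that left 4010 genes to test, the counts were 1806 and 309, and at a 2-fold size 200 genes were called. Without _s_at and _x_at probe sets alone, a choice made after seeing the data, they were 5122 and 772. With the replicate number as a block they were 6082 and 870; arrays with the same number did not share deviations from their group means, so the numbers only name arrays. Leaving out each array in turn gave 5504 to 6291 and 857 to 898. Median centring gave 2781 higher and 3308 lower. Of 225 genes named, the change turned sign with spike-in centring for ACOT11 (-0.40), ACOT7 (-0.39), AHSG (-0.34), APOA1 (-0.28), ASGR1 (-0.31), CCT3 (-0.058), CTSB (-0.26), HARS1 (-0.12), NAPSA (-0.31), RARS1 (-0.070), SFTPC (-0.28), SLC2A1 (-0.19), SLC2A13 (-0.091), SLC2A4 (-0.38), SRSF1 (-0.036), SRSF10 (-0.076), SRSF11 (-0.28), SRSF4 (-0.092), TF (-0.31), TNFRSF1A (-0.11), TRA2A (-0.39) and TRA2B (-0.0061), with the mean of probe sets for PCDH9 (0.0017), SOX4 (0.13) and TRA2A (-0.13), on the probe set of largest variance for CTSB (-0.15), SOX4 (0.53) and TRA2A (-0.51), without _s_at and _x_at probe sets for ATG12 (0.17), CTSC (0.024), JAG1 (0.36), SOX4 (0.0069) and TNFRSF1A (-0.065), and without _a_at probe sets as well for PCDH9 (0.50), SOX4 (0.0069) and TNFRSF1A (-0.065); the cause was not tested. In the other comparisons of a named gene with an alternative, 5289 left the gene called or not called as before, 49 lost and 26 gained the call. A change of sign in a gene called in neither fit is not listed above and is counted among the 5289. Calls were lost when 1 array was left out for ACOT8 (medium 2 or 3, biomineralized insulin 1 or 2; adjusted p 0.059 to 0.091), CTSB (medium 3 or biomineralized insulin 3; 0.055 to 0.079), CTSD (medium 1, biomineralized insulin 2 or 3; 0.053 to 0.14), SLC2A13 (biomineralized insulin 2; 0.050), SOX4 (medium 2 or biomineralized insulin 2; 0.054 to 0.064) and SRSF9 (any but medium 3 among the 6; 0.056 to 0.16), and ACSL4 gained one without medium 3 or insulin 2; the markers SCGB3A2, SFTPB and TTR also gained a call when 1 array was left out. Dim genes had the larger errors and fewer calls.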

Other observations

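The insulin arrays, which share the medium arrays as their control, are set here beside the medium and biomineralized insulin arrays for genes of the report, as group means in log2. For ARNT2 the means were 6.68 in medium, 7.18 with insulin and 8.19 with biomineralized insulin. For FGFBP1, the carrier of fibroblast growth factors, they were 5.35, 5.78 and 7.20. CARS1 stood at 10.15, 9.89 and 8.30, and SLC1A5 at 9.90, 9.60 and 8.40. BMAL1, the clock activator, stood at 8.79, 8.76 and 7.35. TUBE1 stood at 8.85, 8.98 and 7.31, and PPARG at 10.08, 10.16 and 9.27. In the same limma fit, biomineralized insulin minus insulin was 1.01 (ARNT2), 1.41 (FGFBP1), -1.59 (CARS1), -1.20 (SLC1A5), -1.41 (BMAL1), -1.66 (TUBE1) and -0.88 (PPARG) log2, the highest adjusted p being 4.3e-09. These genes were chosen after their values were seen, from genes already changed against medium. Differences from insulin were therefore likely, and their number says nothing of other genes.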
